A study of Mus musculus with 15 samples.

Results

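The genes described here are Rest, the class I histone deacetylases Hdac1, Hdac2, Hdac3 and Hdac8, and the corepressor genes Rcor1, Rcor2, Kdm1a, Sin3a and Sin3b. They are 10 genes, listed by symbol and found by Ensembl gene ID among the 21889 genes of the count tables. All 10 passed the filter on low counts and are among the 15259 genes tested. Poly(A) RNA was sequenced in 15 mouse libraries of Percoll-purified cerebellar cells, 3 in each of 5 groups. Cells labelled granule neuron precursors were taken at E15.5 (genotype Math1-GFP) and, from wild type mice, at P1, P7 and P14. Such precursors are the dividing cells that become cerebellar granule neurons. The MB group holds medulloblastoma cells from Ptch1 heterozygous mice, with no age given. Age and the Math1-GFP genotype change together between E15.5 and P1 and cannot be told apart. Nothing in the labels says whether a library is 1 animal or a pool, or which cells carry the GFP. Math1 is another name of Atoh1, a gene that marks granule neuron precursors. The replicates are not said to come from separate animals, so p-values measure only the spread between these libraries.

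REST is a zinc finger repressor that binds a conserved DNA element, RE1, in many neuronal genes and keeps them off outside neurons. One of its ends recruits SIN3 scaffolds with HDAC1 and HDAC2, and the other recruits CoREST, a scaffold (RCOR1 or RCOR2) that holds HDAC1 or HDAC2 together with the histone H3K4 demethylase LSD1, the product of Kdm1a. HDAC3 works mainly in NCoR complexes, and HDAC8 acts outside these large complexes. In the cerebellum, REST is known for its decline as neural progenitors become neurons, and for its study as a driver of Sonic hedgehog medulloblastoma.

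Libraries held 12597472 to 43443132 counts in genes. The 6 granule precursor markers (Atoh1, Zic1, Zic2, Barhl1, Pax6, Gli1) summed to 2105 to 4395 CPM (counts per 1000000 counts in genes, after TMM scaling) over all libraries, and none was at 0 in a group. Atoh1 itself differed between groups, with 128.6 ± 8.53 CPM in the E15.5 libraries and 47.8 ± 21.0 (P1), 30.6 ± 7.85 (P7) and 11.9 ± 1.11 (P14) later, against 279.8 ± 43.0 CPM in MB (SD, n = 3). Cell cycle genes summed to 1449 to 1732 CPM at P14, the lowest of the groups. Rbfox3, a marker of maturing neurons, was at 520.6 ± 33.7 CPM at P14 against 111.8 ± 13.7 at E15.5. The word precursor follows the labels, and the P14 libraries are not shown to be mainly dividing cells. E15.5 replicate 3 stood apart in several of the 10 genes, and MB replicate 1 in Hdac1 and Rcor2. These libraries also had the highest shares of records with several alignments, 42.2% and 44.6%, against 22.9% to 32.5% in the others. The part of that in their values was not tested. The P1 libraries differed in markers of other cells. Oligodendrocyte markers were at 3983 CPM in P1 replicate 3 against 625.4 and 1023 in replicates 1 and 2. The 6 choroid plexus markers summed to 407.2, 10510 and 3988 CPM in P1 replicates 1 to 3. No label says that libraries were counted differently, and the sets used below were inferred from 1 gene, Tsnax. The gene table held under 1% of the transcript table's Tsnax count in 6 libraries. They are the 3 of P7, MB replicate 1 and E15.5 replicates 1 and 3, and are called the counting set of P7. Between P7 and either P1 or P14, this set and the age cannot be told apart. Alternatives that bear on it add a term for the set or keep only the other 9 libraries, the counting set of P1 and P14. The latter leaves E15.5 with replicate 2 alone, taken to vary like the other groups, and MB with replicates 2 and 3. For each of the 10 genes, the gene table's count as a percent of the transcript table's count overlapped between the sets, at 90.8% or above in every library for all but Hdac1. In bulk RNA, fewer cells that express a gene and less of its RNA per cell cannot be told apart.

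Rest, the DNA-binding repressor itself (ENSMUSG00000029249, mm9 chromosome 5, 77694516 to 77715457), was highest at P1 and lowest in MB. It was at 25.1, 29.4 and 19.8 CPM in E15.5 replicates 1 to 3, 35.8, 44.0 and 30.3 CPM at P1, and 19.6, 14.3 and 20.2 CPM at P7. It was at 25.3, 21.2 and 20.4 CPM at P14, and 9.96, 9.28 and 8.97 CPM in MB. All MB libraries lay below all 12 precursor libraries, and all P1 libraries lay above every library of the other groups. E15.5 and P14 overlapped, and P14 lay just above P7 without overlap.

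By edgeR's quasi-likelihood test, Rest was 1.92-fold lower in MB than at P7 (log2 fold change -0.94 ± 0.21 SE, FDR 0.00291) and 2.37-fold lower than at P14 (-1.24 ± 0.21, FDR 2.07e-04). These 2 calls were kept under every alternative run, 23 and 24 of them. Rest fell by 1.02 on the log2 scale from P1 to P7, a 2.03-fold difference (SE 0.21, FDR 0.0218), and was 1.65-fold lower at P14 than at P1 (-0.72 ± 0.21, FDR 0.0461). It was 1.48-fold higher at P1 than at E15.5 (0.57 ± 0.21, FDR 0.0375). P14 and E15.5 did not differ by the test (-0.15, 95% interval -0.56 to 0.26).

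The calls on Rest that involve P1 rest on few libraries. For P1 against E15.5 the call was lost without any 1 of E15.5 replicates 1 and 3, P1 replicates 1 and 2, P7 replicate 1 and P14 replicates 2 and 3, with log2 fold changes of 0.38 to 0.59 and FDRs of 0.0508 to 0.177. It was also lost with a term for the counting set (0.49, FDR 0.145), and within the counting set of P1 and P14, where E15.5 has 1 library, the value was 0.31 (FDR 0.300). Groups compared alone, no filter and the TSS table ended the call too (0.54 to 0.59, FDR 0.0506 to 0.0715). For P7 against P1 it was lost without P1 replicate 2 (-0.87, FDR 0.142), P7 replicate 1 (-1.08, FDR 0.0614) or P7 replicate 2 (-0.88, FDR 0.0990), with a term for the counting set (-0.89, FDR 0.124) and with groups compared alone (-1.03, FDR 0.0594). For P14 against P1 it was lost without any 1 of 10 of the 15 libraries (E15.5 replicate 1, P1 replicates 1 and 2, P7 replicates 1 and 3, the 3 of P14, and MB replicates 2 and 3), with log2 fold changes of -0.82 to -0.57 and FDRs of 0.0517 to 0.225, and with RLE size factors, no filter or the replicate block (-0.72 to -0.71, FDR 0.0511 to 0.0592). Without P1 replicate 3, the P1 library richest in oligodendrocyte markers, Rest was 0.69 higher at P1 than at E15.5 (FDR 0.0262) and 1.14 lower at P7 than at P1 on the log2 scale (value -1.14, FDR 0.0123).

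REST is expressed in many cells that are not neurons, so markers of such cells are given beside it. The 6 endothelial markers summed to 376.2 to 567.1 CPM at P1, 284.6 to 347.8 at P7, 691.4 to 724.6 at P14 and 17.6 to 31.5 in MB, and 6 of 6 were called lower in MB than at P7. At E15.5 they summed to 11.2 to 30.5 CPM. The 8 astroglial markers summed to 109.2 to 198.1 CPM at E15.5, 1835 to 3253 at P1, 1704 to 3610 at P7, 3076 to 4041 at P14 and 1211 to 1397 in MB. The 7 pericyte and fibroblast markers went from 20.7 to 36.5 CPM at E15.5 to 466.2 to 706.9 at P1, and stood at 338.9 to 505.4 at P7, 809.5 to 932.5 at P14 and 42.6 to 55.2 in MB. They were highest at P14. The 8 microglia and macrophage markers summed to 145.2 to 421.4 CPM in MB against 42.1 to 131.6 at P7 and 123.3 to 176.5 at P14. Of the 8, 5 were called higher in MB in both comparisons. The 8 oligodendrocyte markers reached 6129 to 6712 CPM at P14 against 648.8 to 963.3 in MB, and the 6 choroid plexus markers 5191 to 8584 against 54.9 to 279.1. At P1 the choroid plexus markers summed to 407.2, 10510 and 3988 CPM in replicates 1 to 3, with Rest at 35.8, 44.0 and 30.3 CPM. At P7 these markers summed to 52.4 to 2031 CPM. None of these markers was at 0 in all libraries of a group. The part of such cells in the Rest differences was not tested.

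**Figure D1:**
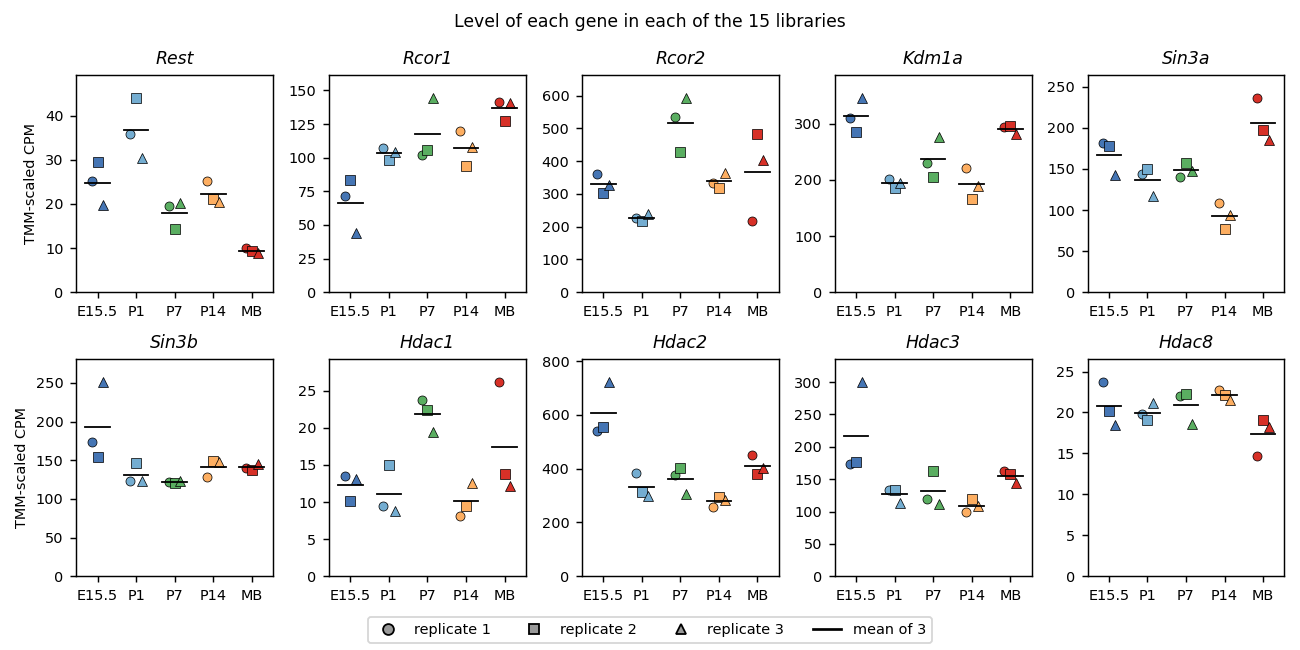
TMM-scaled CPM (vertical axes, linear, each from 0) of the 10 genes in each library (point shapes give the replicate, lines the mean of 3), by group along the horizontal axes. Rest in MB, at 8.97 to 9.96 CPM, lies below every precursor library, Rcor2 in MB ranges from 218.7 to 481.6 CPM, and Hdac8 stays at 14.7 to 23.7 CPM in all 15 libraries.

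A list of 28 genes that REST is known to repress in non-neuronal cells was read beside Rest, and all 28 were tested. In MB against P7, where Rest was lower, 17 of the 28 were lower, 2 were higher and 9 were not called, with a median log2 fold change of -1.20 against 0.019 over all genes. Of all genes, 20.7% were called lower and 13.7% higher. In MB against P14, 20 were lower and 0 were higher, with a median of -1.54 (27.2% and 22.9% of all genes). From E15.5 to P1, where Rest rose, 11 were lower and 2 higher (median -0.49, against 20.9% and 25.4% of all genes), and from P1 to P14, where Rest fell, 6 were higher and 1 lower (median 0.78, against 3.63% and 5.31%). From P1 to P7 edgeR called 0 of the 28, with a median of 0.57, although 12 were higher and 3 lower at an unadjusted p under 0.05 and DESeq2 called 3 higher. In P14 against E15.5, 7 rose and 7 fell, shares close to those of all genes (26.7% higher and 24.2% lower).

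Among the P1 libraries, markers of maturing granule neurons summed to 3036 CPM in replicate 3 against 1237 and 1199 in replicates 1 and 2. Cell cycle genes summed to 2384 CPM in replicate 3 against 3756 and 3365. The part of these differences in the target counts was not tested. P1 replicate 3 weighed on all 3 comparisons with P1. Without it, 17 of the 28 targets were lower at P1 than at E15.5 and 1 higher (median -0.95), 16 were higher at P14 than at P1 and 1 lower (median 1.14), and 9 were higher at P7 than at P1 (median 0.86). Without MB replicate 1, 6 were higher at P7 than at P1, and without E15.5 replicate 3, 1 was. Without P1 replicate 1 or 2, or any 1 of the P14 libraries, 0 were called higher at P14 than at P1 (medians 0.55 to 0.82), and without MB replicate 1, 12 were. DESeq2 called 11 higher in that comparison, as did edgeR within the counting set of P1 and P14. In P14 against E15.5, 2 rose and 7 fell within that set (median 0.039, with 1 E15.5 library), 4 rose and 8 fell with a term for the set, and 11 rose and 8 fell with groups compared alone. Without P14 replicate 2, 6 rose and 4 fell there. The counts in MB against P7 stayed at 15 to 19 lower and 0 to 2 higher, and those in MB against P14 at 18 to 20 lower, with each library left out in turn.

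The largest differences between MB and P7 were in Calb1, a calcium buffer that is also a Purkinje cell marker, and in Nefm, the medium neurofilament. Calb1 was at 0.188 ± 0.049 CPM in MB against 155.1 ± 103.8 CPM at P7 (SD, n = 3), and Nefm at 1.11 ± 0.54 against 28.4 ± 9.92 CPM. Scg2, secretogranin, was at 6.66 ± 4.20 CPM in MB against 122.2 ± 14.7 CPM at P7 (log2 fold change -4.20, FDR 9.17e-07), and L1cam, an axonal adhesion molecule, at 26.6 ± 10.5 against 356.7 ± 103.1 CPM. The 2 that were higher in MB were Bdnf, a neurotrophin at only 2.18 ± 1.92 CPM, and Syt4, a synaptotagmin, at 92.1 ± 44.7 CPM against 35.7 ± 3.84 at P7. From E15.5 to P14, Snap25, a component of the vesicle fusion machinery, rose from 120.3 ± 16.6 to 689.6 ± 27.0 CPM, and Slc12a5, the neuronal chloride exporter, from 24.6 ± 9.86 to 94.4 ± 18.2. Nefm fell over the same span from 126.3 ± 22.9 to 22.5 ± 1.89 CPM, and Tubb3, neuronal tubulin, from 3754 ± 1326 to 777.0 ± 34.8. Markers of maturing granule neurons moved in the same libraries: the 6 markers summed to 968.7 to 1490 CPM in MB against 3418 to 3627 at P7 and 3740 to 4498 at P14. The 6 Purkinje markers summed to 29.1 to 45.9 CPM in MB against 224.8 to 780.0 at P7, and the 6 GABAergic interneuron markers to 1.64 to 3.09 against 226.9 to 358.6. The part of these cells in the target genes' differences was not tested.

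**Figure D2:**
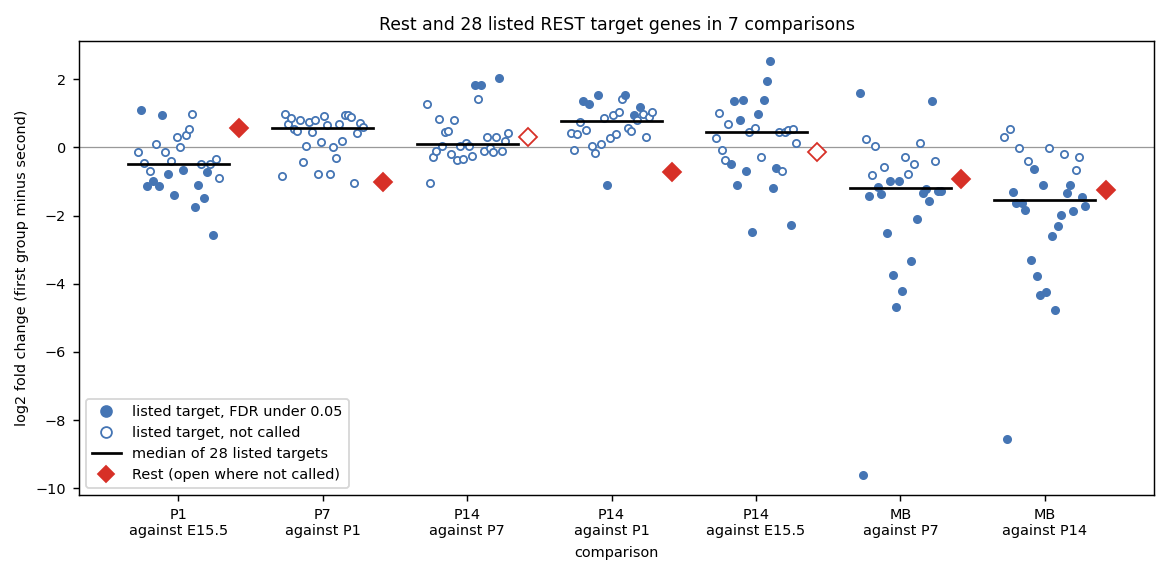
Fitted log2 fold change (vertical axis) of Rest (diamonds) and of 28 listed REST targets (circles, filled where the FDR is under 0.05, line at their median) in 7 comparisons. The targets' median is -1.20 in MB against P7 and -1.54 in MB against P14, comparisons in which Rest is also lower.

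The RE1 element has a left box, TTCAGCACC, and a right box, GGACAGCG, set some bases apart, and both strands of RefSeq promoters (GRCm38.p6, 250 bases before to 50 after a start) were searched for each box. The left box was found in 4 of the 27 promoters of listed targets (18 of the 28 genes have entries), or 14.8%, against 122 of all 32851 promoters, or 0.371%. The right box was in 2 of the 27, or 7.41%, against 413 of all, or 1.26%. In the 8 promoters of 7 of the 10 genes described here the left box was found in 0 and the right box in 1, that of Rcor2. A match describes the letters only and is not a binding site, and the 2 boxes share no bases where both occur. The stretches that hold a box are shown with each box in capitals, on the strand of the gene, because they let the element be seen in genes whose values are given next (the stretches over an annotated exon are kept to 30 bases or fewer).
Syn1, chrX:20921107-20921168, minus strand: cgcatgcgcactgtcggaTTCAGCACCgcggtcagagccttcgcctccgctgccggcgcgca
Celsr3, chr9:108825883-108825961, plus strand: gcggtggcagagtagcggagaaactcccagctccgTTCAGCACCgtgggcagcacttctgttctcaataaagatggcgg
Gria2, chr3:80802965-80803042, minus strand: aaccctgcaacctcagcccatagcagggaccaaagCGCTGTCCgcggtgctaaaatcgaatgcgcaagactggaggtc
Unc13a, chr8:71671725-71671753, minus strand: ggCGCTGTCCgcgcccccGGTGCTGAAgc
Scg2, chr1:79440015-79440043, minus strand: ggagctgtccGGTGCTGAAacggcccgag
Rcor2, chr19:7267315-7267344, plus strand: ccccgtgggagGGACAGCGggcgggggctt

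Only the Unc13a stretch holds both boxes in full, read here on the opposite strand. Unc13a, a vesicle priming factor, was at 133.2 ± 51.0 CPM in MB against 321.0 ± 50.6 at P7 (log2 fold change -1.27 ± 0.32, FDR 0.00590). Syn1, synapsin I, was at 50.2 ± 19.8 CPM in MB against 118.0 ± 33.3 at P7 (-1.23 ± 0.35, FDR 0.0133). It was also lower at P1 (61.3 ± 28.2 CPM) than at E15.5 (173.2 ± 34.9 CPM), with an FDR of 0.00320. Gria2, an AMPA receptor subunit, did not pass the test in MB against P7 (-0.59 ± 0.24, FDR 0.0666), and rose from 272.2 ± 98.9 CPM at E15.5 to 527.8 ± 53.5 at P1 (FDR 0.00435), when Rest was also higher. Celsr3, a cadherin receptor of axon guidance, was at 504.7 ± 148.4 CPM in MB and 425.4 ± 110.7 at P7 (FDR 0.581). The values of these genes thus went different ways between the same groups. Srrm4, the splicing factor known to switch Rest to a truncated neuronal form, was at 216.1 ± 90.9 CPM at E15.5, 225.8 ± 84.5 at P7 and 139.7 ± 38.9 in MB, and was not called in any of the 7 comparisons. The gene model used has 1 Rest transcript, so Rest splice forms were not analysed here.

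Of the CoREST scaffolds, Rcor1 (ENSMUSG00000037896, chromosome 12, 112277561 to 112354112) was low at E15.5 and Rcor2 (ENSMUSG00000024968, chromosome 19, 7342791 to 7349715) was high at P7. Rcor1 stood at 71.8, 83.4 and 44.0 CPM in E15.5 replicates 1 to 3, and at 93.7 to 119.5 CPM in the 6 libraries of P1 and P14. It stood at 101.7, 106.0 and 144.5 CPM at P7 and at 141.6, 127.2 and 141.0 CPM in MB. Each E15.5 library lay below every other library, and the other 4 groups overlapped in order. Rcor1 was 1.56-fold higher at P1 than at E15.5 (0.64 ± 0.21, FDR 0.0210) and 1.61-fold higher at P14 (0.69 ± 0.21, FDR 0.0127). Without E15.5 replicate 3 the differences were 0.37 (FDR 0.104) and 0.40 (FDR 0.0728). The calls were also lost without P1 replicate 1 (0.61, FDR 0.0544) for the first and without P14 replicate 1 (0.60, FDR 0.0538) for the second, and both were lost under a counting set term (0.51, FDR 0.117, and 0.56, FDR 0.0852) and within the counting set of P1 and P14, where E15.5 has 1 library (0.31, FDR 0.158, and 0.34, FDR 0.111). Groups compared alone ended the first (0.65, FDR 0.0619). Rcor1 in MB against P14 was called without E15.5 replicate 3 (0.42, FDR 0.0284) and within the counting set of P1 and P14 (0.35, FDR 0.0319).

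Rcor2 was at 361.1, 301.6 and 325.6 CPM at E15.5, 225.8, 216.3 and 239.5 CPM at P1, 533.7, 426.3 and 592.9 CPM at P7, and 332.7, 317.3 and 363.8 CPM at P14. In MB replicate 1 it was at 218.7 CPM, and in replicates 2 and 3 at 481.6 and 402.2 CPM. The P1 libraries lay below all other precursor libraries and the P7 libraries above all of them, while MB spanned the range. The 2.28-fold difference between P7 and P1 (1.19 ± 0.23, FDR 0.0196) was called, and those between P1 and E15.5 (-0.54, FDR 0.0697), P14 and P7 (-0.61, FDR 0.0984) and MB and P7 (-0.49, FDR 0.115) were not. The P7 call was lost without P1 replicate 2 (1.16, FDR 0.120), P7 replicate 1 (1.17, FDR 0.0591), P7 replicate 2 (1.31, FDR 0.0509) or P7 replicate 3 (1.08, FDR 0.0551). Without MB replicate 1, Rcor2 was called in P1 against E15.5 (-0.54, FDR 0.00983), P14 against P7 (-0.62, FDR 0.0166) and P14 against P1 (0.57, FDR 0.0242). With a term for the counting set, Rcor2 was called in P1 against E15.5 (-0.84, FDR 0.0305) and in MB against P7 (-0.82, FDR 0.0456), and the latter was also called without MB replicate 2 (-0.74, FDR 0.0314). P1 against E15.5 was called with DESeq2, groups compared alone and the transcript table too (-0.56 to -0.51, FDR 0.0321 to 0.0485). P14 was called against P7 (-0.61, FDR 0.0268) and P1 (0.57, FDR 0.0212) with groups compared alone. Within the counting set of P1 and P14, P14 against P1 (0.56, FDR 0.0156) and MB against P14 (0.42, FDR 0.0236) were called.

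The transcript table holds 2 models of Rcor2, of 12 and 11 exons, and 788 of the longer model's 2801 exon bases lie before the start of the shorter. The share of the longer model's counts that lay outside the shorter was 6.35%, 6.60% and 9.30% at E15.5, 21.2%, 21.0% and 19.3% at P1, and 19.7%, 23.1% and 22.3% at P14. At P7 it was 16.7%, 5.93% and 15.3%, and in MB 2.83%, 17.6% and 20.4%. All E15.5 libraries, P7 replicate 2 and MB replicate 1 were therefore low, and all P1 and P14 libraries high. Wilson 95% intervals were at most 1.09 percentage points to each side and cover counting error only. The bases outside the shorter model lie almost all at the start of the RNA. The part of uneven coverage along the RNA in each library was not tested. Over the shorter model alone, Rcor2 was at 302.7 to 363.0 CPM at E15.5, 177.0 to 199.2 at P1, 431.4 to 527.8 at P7 and 252.1 to 291.5 at P14. On that measure the P14 libraries lay below the E15.5 libraries without overlap, whereas the whole-gene values of these ages overlapped. The shorter-model counts come from the transcript table and the whole-gene counts from the gene table, so these measures are not strictly part and whole. In MB replicate 1 the shorter model's value exceeded the 218.7 CPM of the whole gene. MB replicate 1 was the lowest MB library on both, at 234.0 CPM over the shorter model against 417.4 and 330.5.

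**Figure D3:**
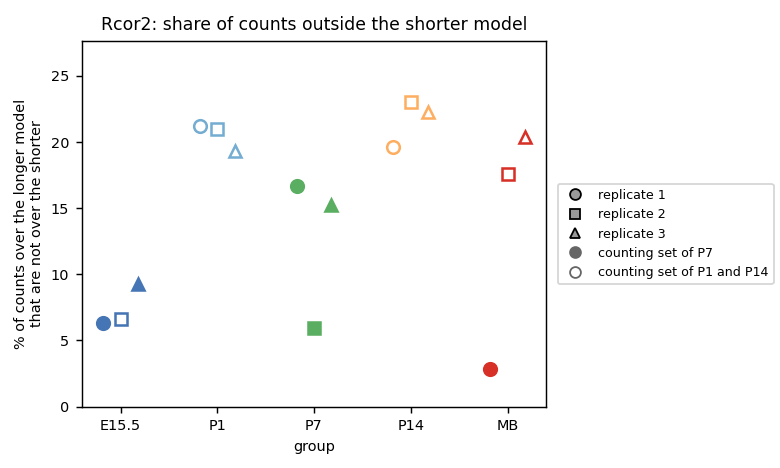
Percent of the counts over the longer Rcor2 model that are not over the shorter (vertical axis) in each library, by group; filled points are libraries of the counting set of P7. E15.5 lies at 6.35% to 9.30% and P1 and P14 at 19.3% to 23.1%, while P7 replicate 2 (5.93%) and MB replicate 1 (2.83%) lie apart from their groups.

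Per kilobase of exon, Rcor2 exceeded Rcor1 in all 15 libraries. The mean ratio of Rcor2 to Rcor1 CPM per kb was highest at E15.5, 10.9 ± 3.87, and at P7, 9.05 ± 1.39 (SD, n = 3). It was 6.46 ± 0.70 at P14, 5.53 ± 2.28 in MB and lowest, 4.46 ± 0.19, at P1. The P1 ratios (4.27 to 4.65) lay below all other precursor libraries, and MB (3.13 to 7.68) overlapped P1 and P14. The third family member, Rcor3, was at 32.5 ± 1.81 CPM at E15.5 and 50.2 ± 0.90 at P14 (0.63 ± 0.15, FDR 0.00303).

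Kdm1a, the demethylase of the complex (ENSMUSG00000036940, chromosome 4, 136106455 to 136158638), was high at E15.5 and in MB. Its levels were 309.4, 285.0 and 346.1 CPM at E15.5 and 294.1, 296.2 and 281.0 CPM in MB. They were 201.1, 186.1 and 194.5 CPM at P1, 229.4, 205.9 and 276.2 CPM at P7, and 220.7, 166.4 and 189.4 CPM at P14. E15.5 and MB overlapped, MB lay just above P7, and P1 and P14 overlapped at the bottom. Kdm1a was 1.62-fold lower at P1 than at E15.5 (-0.69 ± 0.16, FDR 0.00241), 1.63-fold lower at P14 than at E15.5 (-0.71 ± 0.16, FDR 0.00180) and 1.51-fold higher in MB than at P14 (0.60 ± 0.16, FDR 0.00554). These 3 calls were kept in all 24 alternatives each. MB and P7 did not differ by the test (0.29, 95% interval -0.02 to 0.60).

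Among 21 listed genes that work with CoREST or with REST (other scaffolds, readers, H3K9 methyltransferases, phosphatases of REST), 4 rose and 6 fell from E15.5 to P14, 11 were not called, and the median was -0.18. Of all genes, 26.7% rose and 24.2% fell, so these shares are near the background. Smarca4, the BRG1 remodeller that binds REST, fell from 858.4 ± 81.5 to 365.6 ± 88.7 CPM, and Ehmt2, the H3K9 methyltransferase G9a, from 387.7 ± 49.2 to 190.8 ± 15.3. Ctdspl, a small phosphatase that acts on REST and RNA polymerase II, rose from 12.6 ± 1.92 to 28.3 ± 2.81 CPM. In MB against P7, 2 were higher and 0 lower (13.7% and 20.7% of all genes): Gse1, an LSD1 partner, at 648.4 ± 242.5 against 287.0 ± 101.0 CPM, and Cdyl, a chromodomain corepressor that bridges REST and G9a, at 42.4 ± 5.02 against 25.1 ± 3.88. In MB against P14, 6 were higher and 0 lower (22.9% and 27.2% of all genes). Within the counting set of P1 and P14, with 2 MB libraries, 13 were higher. The share of all genes called within that set is not given here, so the 13 has no background beside it. Leaving out each library gave 2 to 5 rises and 4 to 8 falls from E15.5 to P14 (2 rises without E15.5 replicate 2 or 3, P7 replicate 1 or any P14 library) and 1 to 5 higher in MB than at P7 (5 without MB replicate 1, 4 without E15.5 replicate 3, and 1 without MB replicate 2 or 3 or P7 replicate 1 or 2). In MB against P14 it gave 5 to 9 higher. With a term for the counting set 2 rose and 6 fell from E15.5 to P14, and 1 was higher and 1 lower in MB than at P7.

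The 2 SIN3 scaffolds moved differently. Sin3a (ENSMUSG00000042557, chromosome 9, 56923145 to 56976173) was at 181.2, 178.1 and 143.1 CPM at E15.5, 144.1, 150.5 and 116.6 CPM at P1, and 140.5, 156.8 and 147.5 CPM at P7. It was at 108.5, 77.3 and 93.8 CPM at P14 and at 236.6, 197.1 and 185.0 CPM in MB. All P14 libraries lay below, and all MB libraries above, every library of the other groups, and E15.5, P1 and P7 overlapped. Sin3a was 2.21-fold higher in MB than at P14 (1.15 ± 0.17, FDR 6.53e-05) and 1.80-fold lower at P14 than at E15.5 (-0.84 ± 0.17, FDR 8.74e-04), and both calls were kept in 24 of 24 alternatives. It was 1.59-fold lower at P14 than at P7 (-0.67 ± 0.17, FDR 0.0258), a call lost without P7 replicate 2 or 3 or P14 replicate 2 or 3 (-0.68 to -0.55, FDR 0.0529 to 0.132) or with a term for the counting set (-0.58, FDR 0.205). Sin3a at P14 against P1 was not called (-0.56), but was without E15.5 replicate 3, P1 replicate 3 or MB replicate 1, with DESeq2 or groups compared alone, and within the counting set of P1 and P14 (-0.66 to -0.55, FDR 0.0233 to 0.0372). Sin3a was 1.39-fold higher in MB than at P7 (0.48 ± 0.17, FDR 0.0412), a call lost in 13 of 23 alternatives, without each P7 library, MB replicates 1 and 2, E15.5 replicate 1, P1 replicates 1 and 2 and P14 replicate 3 among them (0.37 to 0.52, FDR 0.0517 to 0.114).

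Sin3b (ENSMUSG00000031622, chromosome 8, 75247187 to 75282102) was at 174.2, 153.8 and 251.3 CPM at E15.5 and at 120.2 to 149.1 CPM in all 12 other libraries. E15.5 lay above the other groups, whose neighbours in order overlapped. Sin3b was 1.47-fold lower at P1 than at E15.5 (-0.56 ± 0.17, FDR 0.0152) and 1.36-fold lower at P14 (-0.44 ± 0.17, FDR 0.0410). The first call was lost without P1 replicate 1 (-0.52, FDR 0.0558) or P1 replicate 3 (-0.52, FDR 0.0512), with groups compared alone (-0.53, FDR 0.0628) and with a term for the counting set (-0.40, FDR 0.144). The second was lost in 11 of 24 alternatives, among them without E15.5 replicate 3 (-0.28, FDR 0.115) and without each P14 library (-0.48 to -0.38, FDR 0.0690 to 0.140), P1 replicate 1 or MB replicate 2. With that term the second was -0.28 (FDR 0.291). Within the counting set of P1 and P14, where E15.5 has 1 library, the values were -0.24 (FDR 0.247) and -0.14 (FDR 0.490). MB and P14 did not differ in Sin3b by the test (-0.01, 95% interval -0.34 to 0.33).

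The ratio of Sin3a to Sin3b CPM per kb was lowest at P14, at 0.52 ± 0.13, and highest in MB, at 1.16 ± 0.17 (SD, n = 3). It was 0.73 ± 0.25 at E15.5, 0.82 ± 0.090 at P1 and 0.96 ± 0.061 at P7. The P14 ratios (0.41 to 0.66) and the MB ratios (1.00 to 1.34) did not overlap, while E15.5 (0.45 to 0.91) overlapped P14.

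Of the 18 listed genes of the SIN3 complex and its partners, 17 were tested. The list includes Mxi1, a transcription factor that binds SIN3 and is not a subunit, which was among those higher in MB than at P14. In MB against P14, 13 were higher and 0 lower, with 4 not called and a median of 0.63 (22.9% and 27.2% of all genes), and in MB against P7, 4 were higher and 0 lower (median 0.21, against 13.7% and 20.7%). Sinhcaf, a SIN3 subunit, was at 35.5 ± 7.56 CPM in MB, 16.5 ± 4.73 at P7 and 11.2 ± 1.25 at P14, and Kdm5a, an H3K4 demethylase, at 239.6 ± 71.1, 128.3 ± 11.1 and 116.1 ± 10.99. From E15.5 to P14, 7 fell and 0 rose (median -0.46, against 24.2% and 26.7%), among them Sap30, which binds SIN3 directly, from 46.5 ± 11.8 to 20.7 ± 2.35 CPM, and Sap130, from 128.3 ± 27.6 to 73.0 ± 13.7. Rbbp7, a histone-binding subunit, fell from 161.0 ± 26.1 to 115.8 ± 5.95 CPM (FDR 0.0255), and its paralog Rbbp4 did not pass (500.7 ± 178.7 and 364.4 ± 14.5 CPM, FDR 0.114). Without P14 replicate 1, 2 or 3 the count higher in MB than at P14 was 8, 7 and 8, and without MB replicate 2 that in MB against P7 was 2. With a term for the counting set, 3 fell from E15.5 to P14. The 10 tested cell cycle genes moved in the same libraries, with 10 of 10 higher in MB than at P14, and summed to 4624 to 6208 CPM in MB, 3233 to 4613 at P7 and 1449 to 1732 at P14. The part of dividing cells in the differences of the listed SIN3 genes was not tested.

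Hdac2, a deacetylase shared by the SIN3 and CoREST complexes (ENSMUSG00000019777, chromosome 10, 36694350 to 36721695), had a mean level of 302.1 CPM per kb at E15.5, the highest there of the 9 genes other than Hdac1. It was at 539.7, 554.6 and 722.6 CPM in E15.5 replicates 1 to 3, 384.6, 313.0 and 299.7 CPM at P1, and 376.8, 401.5 and 306.0 CPM at P7. It was at 257.9, 295.3 and 284.8 CPM at P14 and 449.3, 381.0 and 400.8 CPM in MB. E15.5 lay above all other libraries and P14 below all others, and MB, P7 and P1 overlapped in order. Hdac2 was 1.82-fold lower at P1 than at E15.5 (-0.87 ± 0.18, FDR 0.00107) and 2.17-fold lower at P14 (-1.12 ± 0.18, FDR 1.11e-04), and both calls were kept in all 24 alternatives. It was 1.47-fold higher in MB than at P14 (0.56 ± 0.18, FDR 0.0157), a call lost only without P14 replicate 1 (0.50, FDR 0.0631) among the 24 alternatives. MB and P7 did not differ by the test (0.18, 95% interval -0.16 to 0.53).

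Hdac3, the deacetylase of NCoR complexes (ENSMUSG00000024454, chromosome 18, 38096626 to 38114642), was at 173.6, 175.8 and 300.3 CPM at E15.5 and at 99.4 to 133.7 CPM in the libraries of P1 and P14. It was at 119.9, 162.4 and 111.5 CPM at P7 and 163.2, 157.9 and 144.5 CPM in MB. E15.5 lay above the rest, with replicate 3 far above the other two, and each other group overlapped its neighbour in order. Hdac3 was 1.71-fold lower at P1 than at E15.5 (-0.78 ± 0.21, FDR 0.00760) and 1.98-fold lower at P14 (-0.99 ± 0.21, FDR 0.00130). Without E15.5 replicate 3 the differences were -0.51 (FDR 0.0309) and -0.75 (FDR 0.00337). With a term for the counting set the first was -0.58 (FDR 0.0810). MB against P14 was not called (0.51), but was without E15.5 replicate 3 or P7 replicate 1 or 2, with DESeq2, groups compared alone or the TSS table, and within the counting set of P1 and P14 (0.50 to 0.58, FDR 0.00663 to 0.0461). The ratio of Hdac2 to Hdac3 CPM per kb kept to 2.35 to 3.15 over all 15 libraries.

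Of the 4 listed NCoR genes, 2 were called higher in MB than at P14 and 0 lower (22.9% and 27.2% of all genes). They were Tbl1x, a WD-repeat subunit, at 263.4 ± 20.7 against 147.5 ± 11.6 CPM and Gps2, a small subunit, at 71.5 ± 15.03 against 46.5 ± 4.34 CPM. Without MB replicate 2 or P14 replicate 1 the count was 1. In MB against P7 edgeR called 0 of the 4, with 1 at an unadjusted p under 0.05, and DESeq2 called 1. The scaffold Ncor1 was at 591.4 ± 179.0 CPM in MB and 691.3 ± 95.9 at P7 (FDR 0.581). From E15.5 to P14 only Gps2 was called among the 4, at 92.5 ± 17.0 and then 46.5 ± 4.34 CPM (24.2% of all genes fell and 26.7% rose). Of the 9 tested NuRD genes, which share HDAC1 and HDAC2, 5 were higher in MB than at P14 and 0 lower (22.9% and 27.2% of all genes). In MB against P7 only Chd3, a remodeller, was called, at 182.0 ± 27.9 against 327.7 ± 56.4 CPM. Of all genes, 13.7% were higher and 20.7% lower in MB than at P7.

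Hdac8 (ENSMUSG00000067567, chromosome X, 99479978 to 99700698) was the one gene of the 10 that was not called in any comparison. Its libraries ran from 14.7 CPM in MB replicate 1 to 23.7 CPM in E15.5 replicate 1, and all groups overlapped their neighbours in order. Its group means spanned 0.36 on the log2 scale. MB was 1.28-fold lower than P14 (-0.35, normal 95% interval -0.70 to -0.01), without overlap between these groups. By edgeR's test, which is wider than that interval, the unadjusted p was 0.063 and the FDR 0.109.

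Hdac1 (ENSMUSG00000028800, chromosome 4, 129193348 to 129219957) needs more care than the other 9, because part of its RNA cannot be placed. Of the 50-base words of its transcript in the GENCODE reference, 56.4% also occur in Gm10093, annotated as a processed pseudogene on chromosome 17 (78890905 to 78892881), against 0% to 0.0887% shared with any gene for the other 9. The gene table held 38.3% to 60.1% of the transcript table's Hdac1 count, and Hdac1 made up only 11.6% to 26.3% of the counts of the pair (Wilson 95% intervals within 2.06 percentage points). Its CPM is therefore given as that of uniquely placed counts and is not compared with the levels of other genes.

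As deposited, Hdac1 was at 13.6, 10.1 and 13.1 CPM at E15.5, 9.44, 14.96 and 8.78 CPM at P1, 23.7, 22.5 and 19.4 CPM at P7, 8.09, 9.52 and 12.6 CPM at P14, and 26.2, 13.8 and 12.2 CPM in MB. P7 lay above the other ages, and MB replicate 1 alone reached the P7 range. The 4 highest libraries, P7 replicates 1 to 3 and MB replicate 1, all belong to the counting set of P7. The remaining libraries of that set, E15.5 replicates 1 and 3, lay at 13.6 and 13.1 CPM, within the range of the other set. Hdac1 was 2.17-fold lower at P14 than at P7 (-1.12 ± 0.30, FDR 0.0314) and 1.72-fold higher in MB than at P14 (0.79 ± 0.30, FDR 0.0409), although MB replicate 3 lay within the range of P14. The first call was lost without any 1 of the 6 libraries of P7 and P14 (-1.31 to -0.98, FDR 0.0506 to 0.125), and was -0.40 (FDR 0.564) under a counting set term and -1.10 (FDR 0.0516) with the replicate block. The second was lost without MB replicate 1 (0.37, FDR 0.254), P14 replicate 1 (0.65, FDR 0.145) or P14 replicate 2 (0.74, FDR 0.109). It was also lost with a term for the counting set (0.47, FDR 0.157), within the counting set of P1 and P14, which lacks MB replicate 1 (0.39, FDR 0.231), with the replicate block (0.74, FDR 0.0715) and with groups compared alone (0.80, FDR 0.0934). Without MB replicate 1, Hdac1 was called higher at P7 than at P1 (0.98, FDR 0.0221) and lower in MB than at P7 (-0.75, FDR 0.0369), and DESeq2 called the first as well (0.96, FDR 0.0339).

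Adding the 2 genes, a choice made after the data were seen, gave 86.4, 82.0 and 106.3 CPM at E15.5, 81.4, 76.0 and 65.9 at P1, 95.4, 104.7 and 90.4 at P7, 54.9, 67.4 and 68.3 at P14, and 99.4, 97.5 and 84.9 in MB. MB replicate 1 no longer stood apart. On the sum, P14 was lower than P7 (-0.61 ± 0.16, FDR 0.0267) and lower than E15.5 (-0.53 ± 0.16, FDR 0.0111), and MB was higher than P14 (0.56 ± 0.16, FDR 0.00742). P7 against P1 was 0.38 ± 0.16 (FDR 0.192), against 0.98 for Hdac1 alone.

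**Figure D4:**
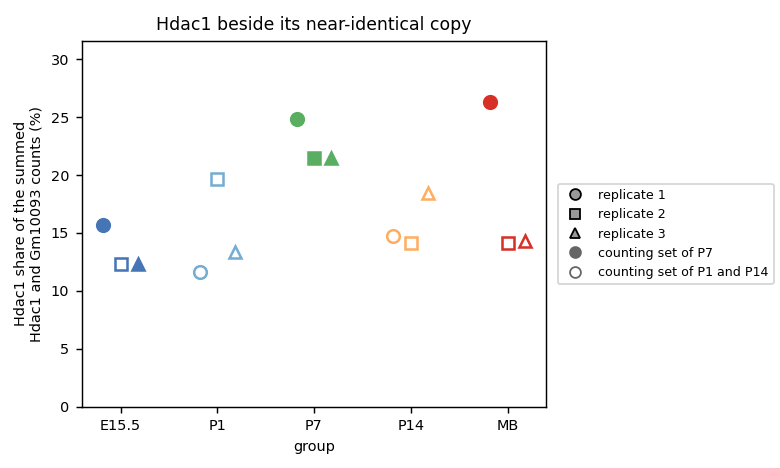
Hdac1's percent of the summed Hdac1 and Gm10093 counts (vertical axis, from 0) in each library by group; filled points are libraries of the counting set of P7. P7 replicates 1 to 3 and MB replicate 1 lie at 21.5% to 26.3%, and the other 11 libraries at 11.6% to 19.7%. Among these 11, E15.5 replicates 1 and 3, also filled, lie at 15.7% and 12.3%.

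Counted over the 10 genes, the comparisons differed in how many were called, and each count is given with the share of all 15259 tested genes called in that direction. At P1 against E15.5, 2 were higher (25.4% of all genes) and 4 lower (20.9%). At P14 against E15.5, 1 was higher (26.7%) and 5 lower (24.2%). At P7 against P1, 1 was higher (1.4%) and 1 lower (1.74%). Between P7 and P14, 0 were higher (5.81%) and 2 lower (4.51%), and between P1 and P14, 0 were higher (3.63%) and 1 lower (5.31%). In MB against P7, 1 was higher (13.7%) and 1 lower (20.7%), and in MB against P14, 4 were higher (22.9%) and 1 lower (27.2%). The test of any difference among the 4 ages called 9 of the 10, all but Hdac8, against 55.7% of all genes. The median log2 fold change over the 10 genes was -0.41 at P1 against E15.5, -0.36 at P14 against E15.5 and 0.43 in MB against P14, where the medians over all genes were 0.03, -0.03 and 0.01. P1 against E15.5 and P14 against E15.5 share their E15.5 libraries, and both MB comparisons share their MB libraries.

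**Figure D5:**
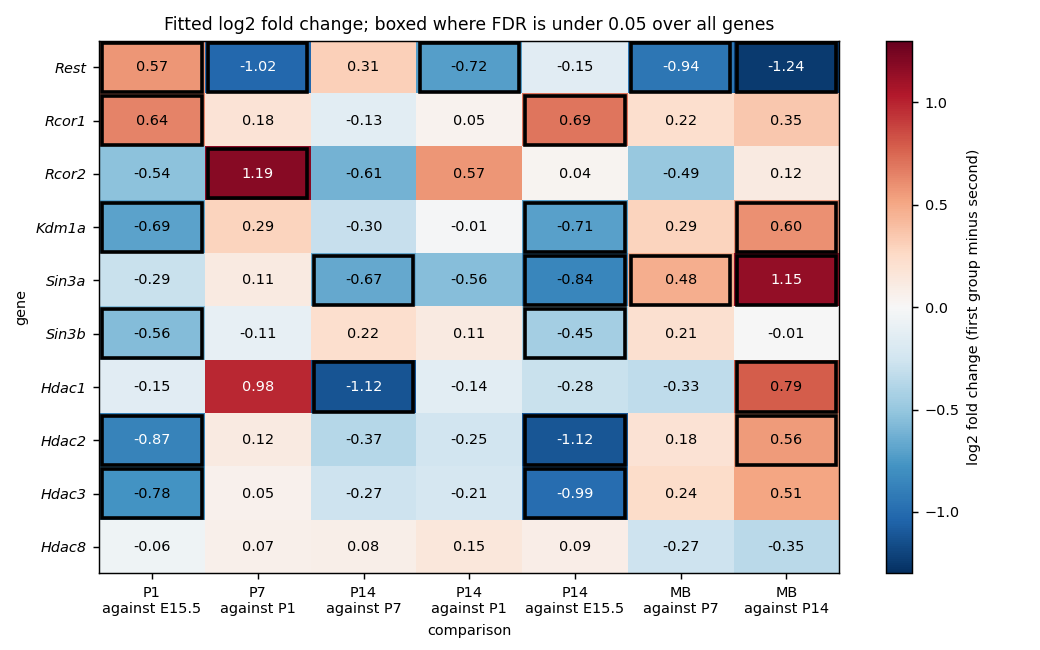
Fitted log2 fold change (colour and printed value) of each of the 10 genes (rows) in each of 7 comparisons (columns), first group minus second, boxed where the FDR over all tested genes is under 0.05. Hdac2, Hdac3, Kdm1a and Sin3b are boxed and negative in both comparisons against E15.5, and Rest is boxed and negative in both MB comparisons.

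The shape over the 5 groups was compared between genes for the 6 genes whose group means spanned at least 1 on the log2 scale, among 11576 tested genes with a symbol and a mean of at least 5 CPM. Likeness was the root mean square difference of centred group means of log2 CPM over the 5 groups, with no test. Rest had the widest span, 1.94, and no close match: its nearest genes were Tlx3 (0.17), Acaa2 (0.20) and Armc2 (0.22). Hdac2 lay within 0.012 of Mterf2, 0.038 of Cct5 and 0.040 of Mrps27. Sin3a lay within 0.022 of 2810004N23Rik, 0.032 of Exosc8 and 0.034 of Hpf1. Rcor1 lay within 0.025 of Eps8l3, 0.031 of Tbc1d1 and 0.033 of Zfc3h1. The nearest genes to Rcor2 were D17Wsu92e (0.099), Bcas1 (0.14) and Zmiz2 (0.14). Those to Hdac1, on its uniquely placed counts only, were Tab2 (0.11), Frmd4a (0.13) and Ncoa6 (0.14). Hdac1's shape depends on that placing: P7 against P1 was 0.98 alone and 0.38 with Gm10093 added. The shape of the sum was not compared with other genes.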

How the data were processed

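RNA-seq read counts of 15 mouse libraries were used. Per the submitters' processing notes, the tools were Trimmomatic, TopHat, StringTie and HTSeq and the build was mm9. Versions, strand setting and read length are not given in the sources used here. The authors deposited raw counts per gene, per transcript and per transcription start site (TSS) model, none of them normalized. Genes were tested on the gene table, whose 5 summary lines (no gene, several alignments and the like) were kept out, which left 39.5% to 55.4% of records in genes. Of the Ensembl IDs, 20358 matched a symbol in the reference tables. With edgeR 4.0.16 in R 4.3.3, genes passing filterByExpr (minimum count 10, minimum total 15; 15259 genes) were scaled with TMM, and all 15 libraries entered 1 quasi-likelihood fit with a mean for each group (10 residual degrees of freedom). P-values were adjusted by Benjamini-Hochberg over all tested genes (FDR), and called means an FDR under 0.05. Shares of all genes called are those of this fit and are not given for the alternatives. CPM are counts per 1000000 of the TMM-scaled library, and SE is that of the log2 fold change. The code was tested on simulated data. The counting sets were told by Tsnax, whose gene count was under 1% of its transcript count in 6 libraries.

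The genes and lists were chosen with earlier results of these data known. Named are all 10 genes, up to 4 called genes per list and direction with the largest change in P14 against E15.5 and MB against P7 (some of them are given), a fixed few (Rcor3, Srrm4, Ncor1, Rbbp4, Rbbp7, Hdac11), the 3 genes of most like pattern, and Syn1, Celsr3, Gria2, Unc13a and Scg2 for their promoter letters. Some listed genes are not reported here, and the lists are counted without them. Alternatives were DESeq2 1.42.0, its size factors (RLE), no filter, groups compared alone, a replicate block, the transcript and TSS tables, a counting set term, 1 counting set, each library left out, and, chosen after seeing the data, Hdac1 summed with Gm10093 and the list counts under the same alternatives. Promoter sequences are RefSeq's (GRCm38.p6), overlaps with exons GENCODE's. Rest, Hdac1 and Hdac3 have no promoter entry.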

Additional observations from a re-analysis of the deposited data

How the results depend on the processing

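Of the 24 called differences of the 10 genes, 10 were kept in every alternative, 14 were lost in at least 1 and 0 changed sign. Of the 46 differences not called, 10 were called in at least 1 alternative and 16 had the other sign in at least 1. The counts that follow have no share of all genes beside them, so whether they moved with all genes is not shown. The counts of called genes that moved by more than 1.5 times were these. At P1 against E15.5 (6) the count was 3 with the counting set term and within 1 set. At P7 against P1 (2) it was 1 with groups compared alone, the TSS table or the set term. At P14 against P7 (2) it was 1 with the replicate block or the TSS table and 0 with the set term. At P14 against P1 (1) it was 2 with DESeq2, 3 with groups compared alone or within 1 set, and 0 with RLE size factors, no filter or the replicate block. In MB against P7 (2) it was 1 with no filter, groups compared alone or the transcript table. Leaving out each library gave 3 to 7 at P1 against E15.5, 0 to 3 at P7 against P1, 0 to 3 at P14 against P7, 0 to 3 at P14 against P1, 4 to 6 at P14 against E15.5, 1 to 2 in MB against P7, 3 to 7 in MB against P14 and 7 to 9 among the 4 ages. A group left with 1 library was taken to vary like the others. Hdac1 and Rcor2 were not in the TSS table as mapped, and 1 set gives no value for P7 comparisons or the 4 ages. The replicate numbers were not treated as pairs in the main fit. Of 30 same-numbered pairs, 7 deviated together (r above 0.1, range -0.31 to 0.33). Values of differently numbered pairs are not given beside them, so this count cannot show whether the libraries are paired. Under the replicate block, Rest at P14 against P1 was -0.72 (FDR 0.0581). Counts per library limit the precision of the genes with few counts, such as Hdac1 (121 to 814).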

Other observations

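The deacetylases outside class I were read from a list of 7 genes, all of them tested. In MB against P7, 2 were higher and 2 lower (13.7% and 20.7% of all genes). Hdac9, a class IIa deacetylase that binds Mef2 factors, was at 98.7 ± 2.77 CPM in MB, 39.0 ± 5.21 at P7 and 19.6 ± 2.42 at P14 (SD, n = 3; log2 fold change 1.34 ± 0.20 SE against P7, FDR 8.18e-05 by edgeR). Hdac10, a polyamine deacetylase, was at 33.1 ± 5.30 CPM in MB and 17.7 ± 1.70 at P7 (FDR 0.00275). Hdac7, a class IIa deacetylase known from endothelium, was at 16.4 ± 3.71 CPM in MB and 67.9 ± 20.5 at P7 (-2.05 ± 0.24, FDR 1.23e-05), and all 6 endothelial markers were lower in MB as well. The part of endothelial cells in that difference was not tested.

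Hdac11, the only class IV deacetylase, moved further than the others named here. It was at 79.3 ± 12.9 CPM at E15.5, and then at 20.5 ± 5.95 (P1), 15.2 ± 4.51 (P7) and 37.2 ± 4.50 (P14), with 3.02 ± 1.41 CPM in MB. It was lower in MB than at P7 (-2.32 ± 0.33, FDR 7.33e-05) and than at P14 (-3.61 ± 0.35, FDR 1.13e-06), fell from E15.5 to P1 (-1.95 ± 0.32, FDR 2.04e-04) and was higher at P14 than at P7 (1.29 ± 0.32, FDR 0.0225). From E15.5 to P14, 3 of the 7 fell and 0 rose (24.2% and 26.7% of all genes). They were Hdac6, a cytoplasmic tubulin deacetylase, from 169.6 ± 13.2 to 71.1 ± 8.09 CPM, Hdac11, and Hdac9, from 40.1 ± 7.28 to 19.6 ± 2.42 CPM.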
